A study of Homo sapiens with 12 samples.

Results

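The 10 genes described here belong to glucocorticoid metabolism (HSD11B1 and HSD11B2), glucocorticoid binding (the receptors NR3C1 and NR3C2) and the transcriptional response to glucocorticoid (FKBP5, TSC22D3, PER1, SGK1, ZBTB16 and KLF9). Their probe sets were taken where the platform annotation gave exactly 1 gene symbol, one of these 10. This left 15 probe sets of 22215 tested, covering 9 of the 10 genes, among 11963 genes in all. PER1, a circadian clock gene, has no value here, because both of its probe sets (2) carry a second symbol.

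Glucocorticoids such as cortisol (hydrocortisone) bind the glucocorticoid receptor in the cytoplasm, where a heat shock chaperone complex holds it ready; the bound receptor moves to the nucleus and raises or lowers its target genes. Before that, a pair of enzymes sets how much active steroid reaches the receptor: the HSD11B1 enzyme mainly makes cortisol from inactive cortisone, and the HSD11B2 enzyme does the reverse. Glycyrrhetinic acids, from liquorice, inhibit these enzymes. In the mammary gland, glucocorticoid acts with insulin and prolactin to support epithelial differentiation and milk protein genes.

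RNA came from HMT-3522 S1 cells, an established human mammary epithelial line, which is not neoplastic, grown as acini (hollow spheres of 1 cell layer) in 5% Matrigel. There were 3 groups of 4 single-colour Affymetrix arrays: AGA (18-alpha-glycyrrhetinic acid, which also blocks gap junctions; labelled not polarized), Aza (5-aza-2'-deoxycytidine, which blocks DNA methyltransferases; labelled not polarized), and vehicle (labelled apically polarized, with the composition of the vehicle not given in the sources used here). Both drugs were given at 10 µM for 10 days from plating, with fresh medium every 2 days. All 3 groups had the same defined medium, which held 1.4 µM hydrocortisone together with insulin, prolactin, transferrin, selenite and estradiol, and all lost EGF for the last 48 h. Every level below was therefore measured with glucocorticoid present, and the arrays measure transcripts, not steroid conversion. The cells are 1 line, the replicates are called biological in the series design with no more said of how separate the cultures were, and p-values measure the spread between these replicates.

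Median deposited intensity was 23.3 to 30.2 on the AGA arrays, 25.5 to 31.0 on the Aza arrays and 29.6 to 35.9 on the vehicle arrays. Levels below are log2 intensity after quantile normalization, with a floor of 0 (an intensity of 1), and the median probe set had a mean level of 4.76; a probe set under that median is called dim. The number of arrays limits the precision. Of 12 mammary epithelial markers measured, 7 lay above that median, led by the basal keratins KRT5 (12.39) and KRT14 (12.37), whereas KRT19 was at the floor on all arrays and EPCAM was dim (1.47). Of 15 markers of fibroblasts, blood, vessel, fat and muscle, 3 lay above it (COL1A1 at 7.15, PLIN1 at 5.05 and DCN at 5.01), and PTPRC (1.19) and PECAM1 (2.05) were dim. Summed deposited intensity over the 15 ran from 178 to 312 in AGA, 300.0 to 375 in Aza and 291 to 341 in vehicle; their part in the results was not tested. In RNA from whole cultures, fewer cells of a type and less RNA per cell cannot be told apart.

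The short promoter stretches that follow are shown because they hold the core hexamer of the glucocorticoid response element, letters the receptor is known to bind, in 2 of the response genes. They are from RefSeq, build GRCh38.p14, minus strand, written 5′ to 3′, with the core hexamer in capitals; FKBP5 is at chr6:35728578-35728613 and SGK1 at chr6:134177851-134177886.
FKBP5: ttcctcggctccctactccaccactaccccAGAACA
SGK1: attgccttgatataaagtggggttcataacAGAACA
The core hexamer was searched as TGTTCT on either strand (AGAACA is its other strand) in windows of 250 bases before to 50 bases after each start. It was present in 2 of 23 windows of 8 of the genes (8.7%), against 14.8% of all 35116 windows in the table; its first base lies at base 1 from the start in FKBP5 and at base 6 in SGK1. The full palindrome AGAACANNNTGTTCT was in 0 of the 23 windows, against 0.00285% of all windows. Windows of this length leave out distal elements, and a match is a description of letters, not of binding.

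No probe set of these genes passed the adjusted threshold in either treatment. With limma and Benjamini-Hochberg adjustment over all probe sets, 0 of 15 had an adjusted p under 0.05 in AGA against vehicle, beside 0.009% of all probe sets (2 of 22215), and 0 of 15 in Aza against vehicle, again beside 0.009% (2 probe sets). At an unadjusted limma p under 0.05 the counts were 1 of 15 in AGA, beside 4.74% of all probe sets, and 0 of 15 in Aza, beside 3.27%. In Aza against AGA, 0 of 15 passed the adjusted limma threshold, beside 0.0135%, and 1 of 15 the unadjusted one, beside 4.78%. The members' shares were thus near the background in each comparison.

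The intervals give the size of difference that these arrays leave possible under a given fit. Of the 11 member probe sets above the median level, 8 had a 95% interval of AGA minus vehicle inside 1 log2 unit either way, and their differences ran from -0.60 to 0.44. In Aza minus vehicle, 9 of those 11 intervals lay inside 1 log2 unit, with differences from -0.36 to 0.20. Those intervals leave the replicate number out of the fit, as do the intervals below unless the block is named. With the number as a block, 10 of the 11 AGA intervals and 11 of the 11 Aza intervals lay inside 1 log2 unit. Their outermost bounds were -1.09 and 0.95 in AGA, and -0.84 and 0.72 in Aza. In AGA the block intervals were -0.37 to 0.10 for NR3C1 201865_x_at, -0.57 to 0.53 for FKBP5 and -0.20 to 0.45 for TSC22D3 208763_s_at. For SGK1 and ZBTB16 they were -0.08 to 0.95 and -0.42 to 0.22, so the intervals printed below without the block are wider. Intervals clear of 0 then numbered 3 of 15 in AGA (HSD11B2 and KLF9 203543_s_at and 203541_s_at), beside 9.53% of all probe sets, 1 of 15 in Aza (HSD11B2), beside 5.4%, and 1 of 15 in Aza minus AGA (KLF9 203541_s_at), beside 9.12%, and none passed the adjusted limma threshold. Without the block, none of the 4 dim probe sets (HSD11B1, HSD11B2, NR3C2 and 1 for KLF9) had an interval that narrow in either comparison.

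**Figure D1:**
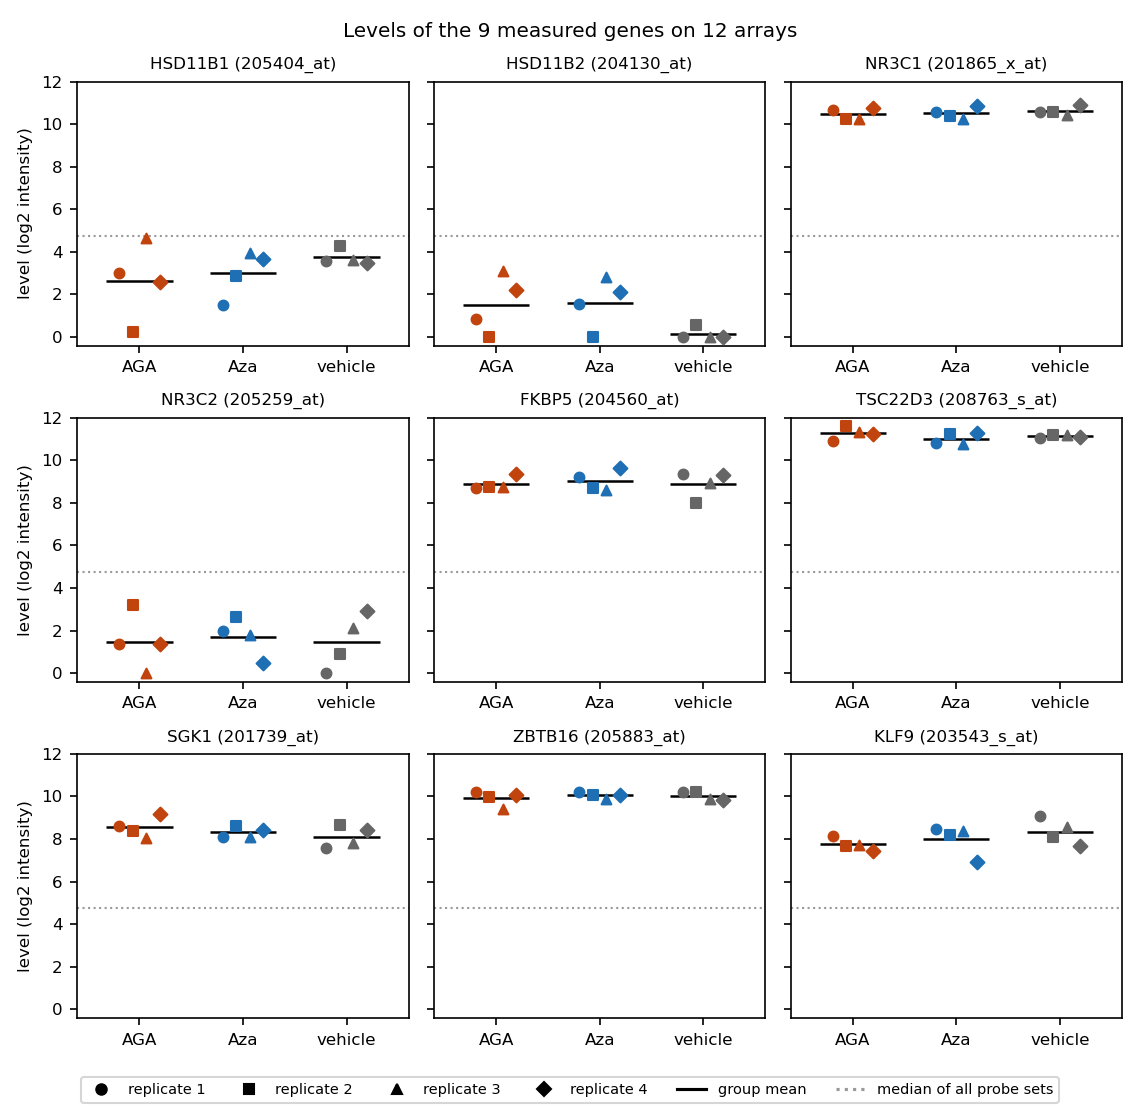
Levels (log2 intensity, quantile normalized) of the brightest probe set of each of the 9 measured genes on 12 arrays, by group (AGA, Aza, vehicle); symbols mark the replicate number, bars the group means of 4 arrays, and the dotted line the median of all probe sets (4.76). The receptor NR3C1 and the 5 response genes lie above that line on every array with overlapping groups, and HSD11B1, HSD11B2 and NR3C2 lie under it.

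The steroid-converting enzymes were both dim. HSD11B1 had levels of 3.02, 0.25, 4.63 and 2.60 on the AGA arrays, 1.50, 2.89, 3.94 and 3.65 on the Aza arrays, and 3.58, 4.29, 3.64 and 3.50 on the vehicle arrays. The vehicle arrays sat close together, the AGA arrays held both the lowest and the highest value, and all 3 groups overlapped. The means were 2.63 ± 1.81 in AGA, 2.99 ± 1.09 in Aza and 3.75 ± 0.36 in vehicle (SD, n = 4 each). The AGA minus vehicle difference was -1.13 (95% interval -2.91 to 0.66) and Aza minus vehicle was -0.76 (-2.54 to 1.02), and limma gave an adjusted p of 1 for both.

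HSD11B2, the enzyme that protects the mineralocorticoid receptor from cortisol in kidney, was at or next to the floor in vehicle. Its levels were 0.85, 0.00, 3.10 and 2.19 in AGA, 1.55, 0.00, 2.80 and 2.12 in Aza, and 0.00, 0.57, 0.00 and 0.00 in vehicle. Replicates 1, 3 and 4 were above the vehicle array of the same number under both drugs, replicate 2 was below it under both, and the groups overlapped. In deposited intensity these were 1.50, 0.865, 7.03 and 4.29 in AGA, 3.09, 0.743, 7.28 and 4.26 in Aza, and 0.712, 1.69, 0.689 and 0.717 in vehicle, against array medians above 23. In AGA minus vehicle the difference was 1.39 ± 0.70 (SE, 95% interval -0.15 to 2.94; limma adjusted p = 1), and Aza minus vehicle was 1.48 ± 0.70 (-0.07 to 3.02; limma adjusted p = 1). With the replicate number as a block the 95% intervals were 0.03 to 2.76 in AGA and 0.11 to 2.84 in Aza, with limma adjusted p of 0.519 and 0.912. Both comparisons use the same vehicle arrays, and with the floor raised to an intensity of 16 no HSD11B2 value lay above it on any array, so both differences became 0.00.

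The glucocorticoid receptor gene NR3C1 was the only bright receptor. Its brightest probe set (201865_x_at) read 10.67, 10.25, 10.24 and 10.76 in AGA, 10.57, 10.37, 10.26 and 10.86 in Aza, and 10.55, 10.55, 10.45 and 10.89 in vehicle. Replicate 4 was the highest array in every group, and the groups overlapped. AGA minus vehicle was -0.13 ± 0.19 (SE, 95% interval -0.56 to 0.30) and Aza minus vehicle was -0.10 ± 0.19 (-0.53 to 0.33), each with a limma adjusted p of 1. A suffix of _x_at marks probe sets with probes that can also match other genes.

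The other 3 NR3C1 probe sets gave AGA minus vehicle of -0.19 (216321_s_at), -0.22 (211671_s_at) and -0.20 (201866_s_at), and Aza minus vehicle of -0.23, -0.13 and -0.05 in the same order. All 4 NR3C1 probe sets were therefore below 0 in both comparisons, with every interval crossing 0, and they read transcripts of 1 gene, so they are not separate evidence. In AGA the sign held for all 4 in each of the settings tried and under each scaling, including the deposited scale, where the median of all probe sets itself moved by -0.24 and the 4 had a median of -0.42. Probe set 211671_s_at was lower in AGA in 4 of 4 same-number pairs. Over the 12 arrays, levels of the 4 probe sets correlated with each other at r of 0.264 to 0.849 (6 pairs, one set of libraries).

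NR3C2, the mineralocorticoid receptor gene, whose protein also binds cortisol, was dim throughout. It read 1.37, 3.20, 0.00 and 1.38 in AGA, 1.98, 2.65, 1.81 and 0.46 in Aza, and 0.00, 0.90, 2.13 and 2.94 in vehicle. The highest and lowest arrays were scattered over the groups, which overlapped. The AGA minus vehicle difference was -0.01 (95% interval -1.73 to 1.72) and Aza minus vehicle was 0.23 (-1.49 to 1.95), which as ratios are intervals of 0.302 to 3.28 in AGA and 0.355 to 3.86 in Aza.

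Among the response genes, FKBP5 encodes a co-chaperone that lowers the receptor's affinity for hormone and is induced by it. It read 8.68, 8.75, 8.75 and 9.35 in AGA, 9.23, 8.72, 8.60 and 9.66 in Aza, and 9.38, 8.00, 8.93 and 9.30 in vehicle. Vehicle replicate 2 was the lowest of the 12 arrays and Aza replicate 4 the highest, and the groups overlapped. In AGA minus vehicle the difference was -0.02 ± 0.34 (SE, 95% interval -0.77 to 0.73) and Aza minus vehicle was 0.15 ± 0.34 (-0.60 to 0.90).

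TSC22D3 encodes GILZ, a leucine zipper protein that carries part of the anti-inflammatory action of glucocorticoid. Its brightest probe set (208763_s_at) read 10.91, 11.59, 11.31 and 11.23 in AGA, 10.79, 11.23, 10.78 and 11.26 in Aza, and 11.07, 11.17, 11.18 and 11.11 in vehicle. The 4 vehicle arrays were nearly level, with an SD of 0.05, and lay within the range of both treated groups. AGA minus vehicle was 0.13 (95% interval -0.28 to 0.53; -0.05 on the deposited scale) and Aza minus vehicle was -0.12 (-0.52 to 0.29). The second probe set, 207001_x_at, gave 0.37 in AGA (-0.24 to 0.98) and 0.09 in Aza (-0.52 to 0.70).

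SGK1 encodes a kinase that regulates ion transport and survival and answers to both receptors. It read 8.62, 8.36, 8.06 and 9.17 in AGA, 8.10, 8.61, 8.11 and 8.45 in Aza, and 7.58, 8.65, 7.80 and 8.44 in vehicle. AGA replicate 4 was the highest array and vehicle replicate 1 the lowest, and the groups overlapped. The AGA minus vehicle difference was 0.44 ± 0.30 (SE, 95% interval -0.22 to 1.09), a ratio of 1.35 (0.860 to 2.13), with same-number differences of 1.04, -0.29, 0.26 and 0.74. Aza minus vehicle was 0.20 (-0.46 to 0.85). The order AGA, Aza, vehicle in the means thus had no neighbours that differed beyond the spread between arrays.

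ZBTB16, which encodes the zinc finger repressor PLZF and is a glucocorticoid target in many cell types, was bright. It read 10.23, 9.97, 9.43 and 10.08 in AGA, 10.19, 10.09, 9.89 and 10.06 in Aza, and 10.20, 10.19, 9.90 and 9.83 in vehicle. The AGA arrays spread more widely (SD 0.35) than those of Aza (0.12) and vehicle (0.19), with AGA replicate 3 the lowest array, and the groups overlapped. In AGA minus vehicle the difference was -0.10 (95% interval -0.52 to 0.32) and Aza minus vehicle was 0.03 (-0.39 to 0.46), each with a limma adjusted p of 1.

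**Figure D2:**
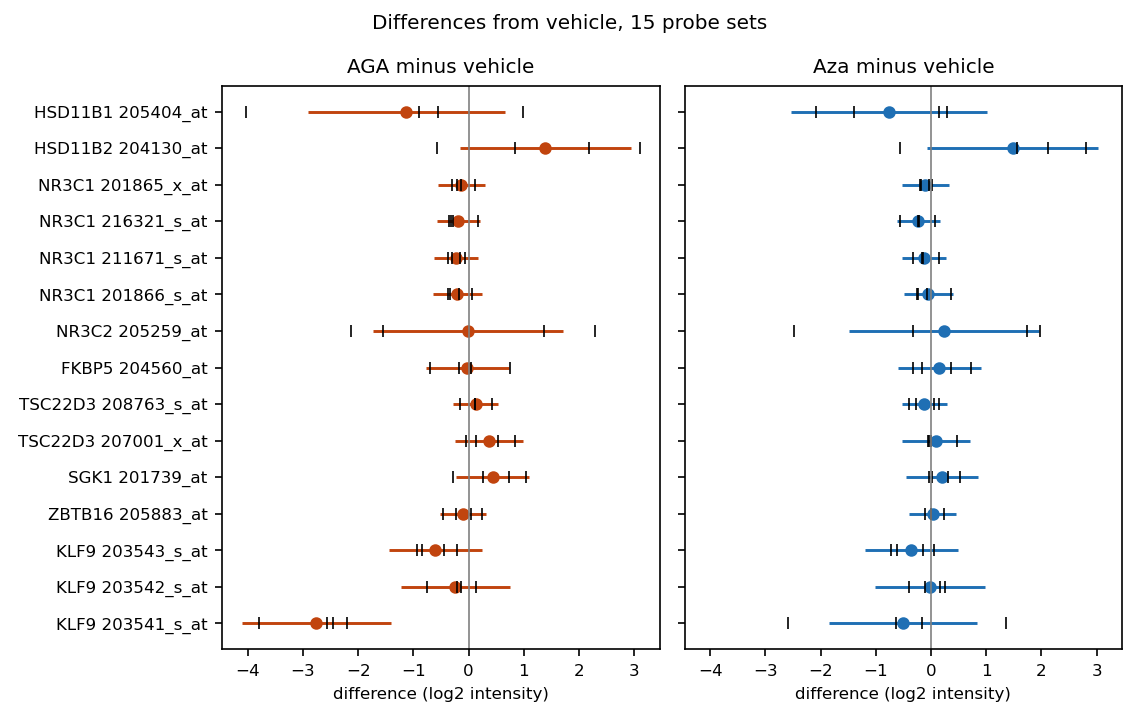
Differences from vehicle (log2 intensity) of the 15 member probe sets, AGA in the left panel and Aza in the right; dots are differences of group means (4 arrays each), lines 95% intervals from limma without the replicate block, and ticks the 4 same-number differences. In the AGA panel the dim KLF9 probe set 203541_s_at (-2.76) is the one whose interval does not cross 0, and in the Aza panel none stays clear of it.

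KLF9, a Krüppel-like transcription factor gene that glucocorticoid and other nuclear hormones induce, gave the largest member difference, and its 3 probe sets differed in size. The brightest, 203543_s_at, read 8.14, 7.67, 7.72 and 7.46 in AGA, 8.46, 8.17, 8.40 and 6.94 in Aza, and 9.07, 8.11, 8.55 and 7.67 in vehicle. Each AGA array was below the vehicle array of its own number, and the groups overlapped. AGA minus vehicle was -0.60 ± 0.38 (SE, 95% interval -1.44 to 0.24; limma adjusted p = 1). With the replicate block the 95% interval was -1.09 to -0.12 and the limma adjusted p 0.470, and with the block and a trend in the prior variance the adjusted p was 0.0866.

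The dim KLF9 probe set 203541_s_at read 0.00, 0.73, 1.29 and 1.60 in AGA, 1.21, 4.53, 3.24 and 3.64 in Aza, and 3.80, 3.18, 3.87 and 3.80 in vehicle. All 4 AGA arrays lay below all 4 vehicle arrays, as they did for 1.3% of all probe sets (288), and Aza overlapped both. The AGA minus vehicle difference was -2.76 ± 0.61 (SE, 95% interval -4.10 to -1.41; limma adjusted p = 0.808). With the block the 95% interval was -4.05 to -1.46 and the limma adjusted p 0.409, and with block and trend 0.0836, so the difference did not pass in any fit. Aza minus vehicle was -0.51 (-1.85 to 0.84), and Aza minus AGA was 2.25 (0.90 to 3.59; limma adjusted p = 0.794), higher in 4 of 4 pairs.

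In deposited intensity the same probe set was 0.958, 1.72, 1.97 and 2.87 in AGA, 2.37, 25.0, 9.83 and 11.6 in Aza, and 14.4, 9.91, 16.7 and 14.6 in vehicle. Only 2 of the 12 arrays reached 16, and with the floor raised to 16 the AGA difference was 0.00. The difference on the deposited scale was -2.95, against a shift of -0.24 in the median of all probe sets; the part of the lower AGA array medians in it was not tested. The third KLF9 probe set, 203542_s_at, read 8.62, 7.57, 7.66 and 7.13 in AGA, 8.64, 7.94, 8.12 and 7.15 in Aza, and 8.75, 8.33, 7.87 and 6.99 in vehicle. Its groups overlapped nearly fully, with AGA minus vehicle at -0.24 (95% interval -1.23 to 0.75) and Aza minus vehicle at -0.02 (-1.01 to 0.97). With the replicate block the 95% intervals were -0.62 to 0.13 in AGA and -0.40 to 0.36 in Aza.

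In all, 3 of the 15 probe sets were lower in AGA in 4 of 4 same-number pairs (NR3C1 211671_s_at and KLF9 203543_s_at and 203541_s_at), beside 9.07% of all probe sets.

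**Figure D3:**
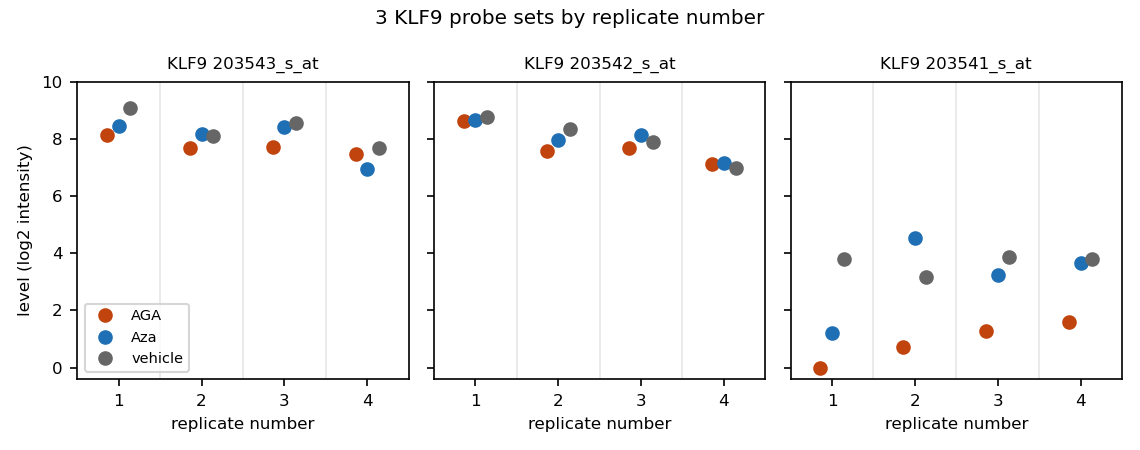
Levels (log2 intensity) of the 3 KLF9 probe sets on each array, by replicate number and coloured by group (AGA, Aza, vehicle). In 203543_s_at and 203542_s_at the replicate 4 array lies lowest within each of the 3 groups (means of 7.36 and 7.09), whereas in 203541_s_at the AGA arrays lie at 0.00 to 1.60 and the vehicle arrays at 3.18 to 3.87.

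Levels were also compared between replicate numbers, with means taken over the 3 groups. The range of the 4 replicate means exceeded the range of the 3 group means in 14 of 15 probe sets, with medians of 0.71 and 0.24, and the exception was KLF9 203541_s_at; a range over 4 means of 3 arrays is wider by construction than one over 3 means of 4. KLF9 203542_s_at showed it most plainly, with means over the 3 groups of 8.67, 7.95, 7.88 and 7.09 for replicates 1 to 4. Its F test over replicate numbers passed (limma F = 24.3, adjusted p = 0.0169), as 1 of 15 member probe sets beside 9.64% of all probe sets. Without the vehicle replicate 1, vehicle replicate 4 or Aza replicate 4 array its limma adjusted p was 0.053, 0.0765 and 0.0706, and without all replicate 4 arrays 0.316.

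With a trend and a robust prior in the same F test, 10 of 15 member probe sets passed, beside 23.8% of all probe sets. These were the KLF9 pair 203543_s_at (limma adjusted p = 6.0e-04) and 203542_s_at (9.9e-06), 3 of the 4 for NR3C1, both for TSC22D3, and those for FKBP5 (0.0184), SGK1 (0.0249) and ZBTB16 (0.0223). All 10 lie above the median level, whereas the 23.8% also counts dim probe sets, so these shares are not like for like. With the F test run over bright probe sets alone, 7 of the 11 bright member probe sets passed, and 5098 probe sets in all. Those 5098 are out of the probe sets above the median level, not out of all 22215. They are therefore a larger share of those tested than 23.8%, which is not the background for the 7 of 11. The share of bright probe sets that passed with the trend was not counted. FKBP5 averaged 9.10, 8.49, 8.76 and 9.44 over the 3 groups for replicates 1 to 4, and NR3C1 201865_x_at averaged 10.60, 10.39, 10.32 and 10.84. Both were highest in replicate 4, where the 2 bright KLF9 probe sets were lowest. What distinguishes the replicate 4 cultures is not given in the sources used here.

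Levels of the response genes were weakly or negatively correlated with each other. Over the 12 arrays the brightest probe sets of FKBP5, TSC22D3, SGK1, ZBTB16 and KLF9 correlated at r of -0.64 to 0.274 (10 pairs), and at -0.642 to 0.494 once replicate means were subtracted; these are descriptions over one set of libraries. After the same subtraction, the levels most like FKBP5 among 9782 probe sets were those of SEPTIN2 (r = 0.966), LOX (0.942) and NADK (0.923). For TSC22D3 they were SHMT2 (0.967), BMAL1 (0.962) and RTCA (0.942). For SGK1 they were COX7A2 (0.924), MYOF (0.924) and MAPK6 (0.921), each over 12 arrays. These are the highest of 9782 correlations for each gene, and the subtraction leaves fewer free values than arrays. No chance level was computed, so they do not show shared regulation.

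Other genes of the pathway were counted in 7 lists, with the brightest probe set standing for each gene. Among 52 measured genes that glucocorticoid is known to induce, 0 passed the adjusted limma threshold in AGA or in Aza, with 3 and 1 at an unadjusted p under 0.05. Their median difference was 0.02 in AGA and 0.01 in Aza, beside 0.01 and 0.00 over the brightest probe sets of all genes. Among 34 genes it is known to repress, again 0 passed in either comparison (1 and 0 at an unadjusted p under 0.05), and the median was 0.25 in AGA (21 of 34 above 0) and -0.14 in Aza (12 of 34 above 0). Over the brightest probe sets of all 11963 genes, 6153 lay above 0 in AGA and 6009 in Aza. On the deposited scale the AGA median of the repressed list was -0.01, against -0.24 for all probe sets.

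Among the repressed genes, FOS, an immediate early transcription factor subunit, differed by -1.01 in AGA (95% interval -2.42 to 0.39), and NFKB1, an NF-kB subunit, by 0.34 (0.02 to 0.66). Each was of 1 sign in 4 of 4 pairs with a limma adjusted p of 1. List genes short of the threshold were picked for that single sign and a large difference, which favours block intervals clear of 0. With the replicate block the intervals were -1.63 to -0.39 for FOS and 0.08 to 0.59 for NFKB1 (limma adjusted p of 0.427 and 0.457). Among the induced genes, CRISPLD2, a secreted protein, differed by 0.87 in AGA (-2.13 to 3.86) and 1.15 in Aza (-1.84 to 4.14); with the replicate block these intervals were 0.20 to 1.53 and 0.48 to 1.82 (limma adjusted p of 0.464 and 0.912). Its replicate 4 arrays read 8.12 in AGA, 7.98 in Aza and 7.68 in vehicle and no other array exceeded 4.82. TFCP2L1, an epithelial transcription factor, differed by 0.73 in Aza (-0.26 to 1.73, or 0.19 to 1.28 with the block, where the limma adjusted p was 0.912).

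The 14 chaperone genes of the receptor complex had medians of -0.08 in AGA and -0.05 in Aza, with 0 past the adjusted limma threshold and 0 at an unadjusted p under 0.05 in both. HSPA4, an HSP70 family member, differed by 0.31 in AGA for 1 probe set (211015_s_at; 95% interval 0.02 to 0.60), and its other 3 gave 0.09 to 0.18. Of 13 receptor coregulators, 12 lay below 0 in AGA with a median of -0.26, beside 5799 of the brightest probe sets of all 11963 genes. In Aza, 9 lay below 0 with a median of -0.07, beside 5943 of the 11963. In limma 0 passed, with 1 at an unadjusted p under 0.05 in each comparison. Among the coregulators were the coactivator NCOA1 (209105_at, -0.82 in AGA), the Mediator subunit MED14 (202611_s_at, -0.79) and the acetyltransferase EP300 (202221_s_at, -0.54 in AGA and -0.50 in Aza). For MED14 and EP300 all 4 AGA arrays lay below all 4 vehicle arrays, as they did for 1.3% of all probe sets, with limma adjusted p of 0.808 and 0.884. Both were picked for a large difference of 1 sign. The brightest MED14 probe set, 202610_s_at, gave -0.49 in AGA, and the dim ones of this gene ranged from -1.46 to 0.47. The NCOA1 value is from its dimmest probe set, and the 3 brighter ones gave -0.41, -0.07 and -0.20 in AGA. The second EP300 probe set gave -0.21 in AGA and -0.43 in Aza.

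Among 29 further steroid enzymes and carriers, 0 passed in limma and 0 had an unadjusted p under 0.05 in either comparison; the medians were 0.01 in AGA and 0.18 in Aza. The ketosteroid reductases AKR1C2 (209699_x_at) and AKR1C1 (216594_x_at) differed by 1.13 (95% interval -0.88 to 3.14) and 1.05 (-0.92 to 3.03) in AGA. Both were higher in 4 of 4 pairs, which was a condition for naming them. With the replicate block the intervals were 0.37 to 1.89 and 0.42 to 1.68 (limma adjusted p of 0.436 and 0.427). Another AKR1C2 probe set gave 0.58, and the other AKR1C1 probe sets 1.01 and 0.37. These genes are near-identical in sequence, so their signals cannot be assigned to one of them with certainty. Among 12 partners in lactogenic signalling, 0 passed in limma in either comparison, with 0 at an unadjusted p under 0.05, and the medians were 0.06 in AGA and 0.10 in Aza.

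Among 16 mineralocorticoid targets the medians were 0.22 in AGA and 0.08 in Aza, and by their brightest probe sets 0 passed in limma, with 0 and 1 at an unadjusted p under 0.05. A dim probe set of KCNJ1 (210402_at), which encodes a renal potassium channel, did pass: it read 3.17, 3.11, 3.12 and 2.99 in AGA, 0.00, 0.00, 0.00 and 0.24 in Aza, and 0.00, 1.05, 0.00 and 0.14 in vehicle. AGA was higher than vehicle by 2.80 ± 0.23 (SE; limma adjusted p = 0.00241), while the second KCNJ1 probe set differed by 1.10 and did not pass. The call was lost with a floor of 16 and with log2(value + 16). Because the lists were chosen with earlier results of these data known, this pass is not independent support for the list. SCNN1A, the alpha subunit of the epithelial sodium channel, differed by 0.43 in Aza (95% interval -0.21 to 1.08, or 0.13 to 0.73 with the block, where the limma adjusted p was 0.912), and the water channel AQP3 (39248_at) by 0.58 (-0.49 to 1.65). With the block the AQP3 interval was -0.14 to 1.30 (limma adjusted p = 0.913), and the other AQP3 probe sets gave 0.17 and 0.60.

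With the replicate block and a trend in the prior variance, 158 probe sets passed in AGA against vehicle (0.711% of all). Of these, 11 were of genes in the lists. The probe sets tested for listed genes were not counted, so the 11 have no share to set beside 0.711%. By brightest probe sets, 5 of 52 induced genes and 1 of 16 mineralocorticoid targets passed in that fit, and 0 in each other list. The brightest probe sets of all genes were not counted in that fit, so these list counts have no like share beside them either. Lower in AGA were PIK3R1, a regulatory subunit of PI3-kinase (3 probe sets, -0.77, -0.57 and -0.50, limma adjusted p of 0.025, 0.00417 and 0.0055), MERTK, a receptor kinase for apoptotic cells (-0.68, 0.0207), CDKN1C, the cell cycle inhibitor p57 (-0.37, 0.0455), and CEBPD (-0.33, 0.0285). Higher in AGA were SERPINA3, a protease inhibitor (0.57, limma adjusted p = 0.022), ACSL1, an acyl-CoA synthetase (0.56, 0.0198), ATP1B1, a sodium pump subunit (0.65 and 0.52, 0.00451 and 0.0367), and KCNJ1 (0.039). All of these except KCNJ1 and ATP1B1 are on the list of induced genes, 4 genes lower and 2 higher. In Aza against vehicle that fit called 0.0045% of all probe sets, none of them of a listed gene, and it called no member in any comparison.

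**Figure D4:**
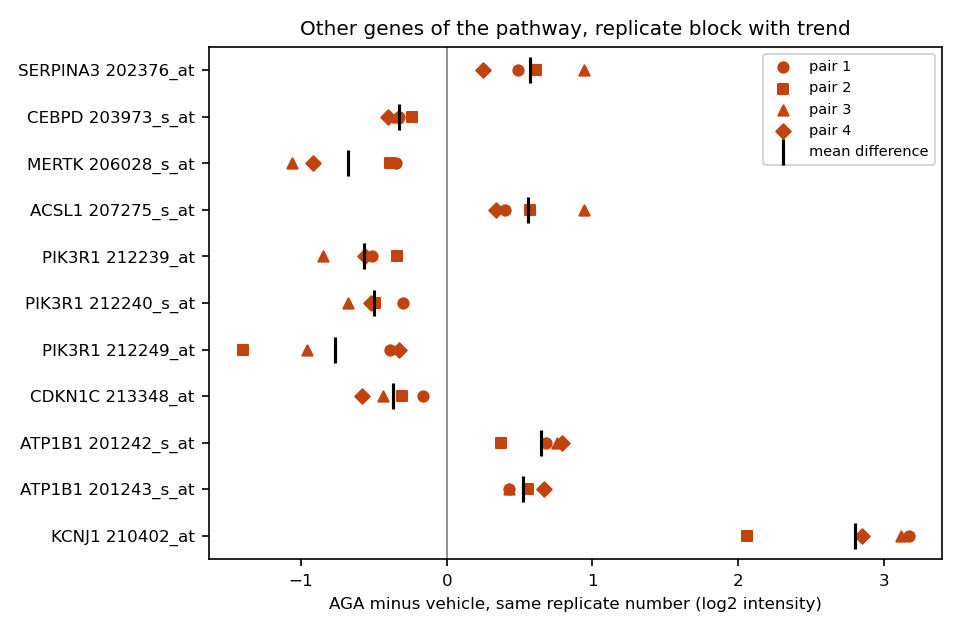
AGA minus vehicle for each pair of arrays with the same replicate number (log2 intensity), for the 11 probe sets of listed pathway genes that passed in the fit with replicate block and trend; symbols mark the pair and vertical bars the mean difference. The 4 pairs lie on 1 side of 0 for every probe set shown, which the choice of these probe sets favours.

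Between the drugs, Aza minus AGA over the 11 bright member probe sets ran from -0.28 to 0.25, and 9 of their intervals lay inside 1 log2 unit. SGK1 stood at -0.24 (95% interval -0.89 to 0.42), TSC22D3 208763_s_at at -0.25 (-0.65 to 0.16), FKBP5 at 0.17 (-0.58 to 0.92) and KLF9 203543_s_at at 0.25 (-0.59 to 1.09), each with a limma adjusted p of 1. Among listed genes, KCNJ1 210402_at passed (-3.04, limma adjusted p = 0.00106). With block and trend, which called 0.86% of all probe sets here, 4 CDKN1C probe sets were higher in Aza than in AGA by 0.65 to 0.88 (limma adjusted p of 4.3e-04 to 0.013), 6 probe sets of the carbonic anhydrase CA12 by 0.61 to 1.02, and 2 of PIK3R1 by 0.60 and 0.49 (0.00104 and 0.00422). Lower in Aza than in AGA in that fit were KCNJ1 210402_at (0.0169), ATP1B1 (-0.76 and -0.54, limma adjusted p of 0.00104 and 0.0212) and ACSL1 (-0.55 and -0.39, 0.0162 for both). DCN, a fibroblast marker encoding the proteoglycan decorin, was also higher in Aza than in AGA there (1.47, limma adjusted p = 0.0162). Without block and trend its limma adjusted p was 0.619. All 4 Aza arrays lay above all 4 AGA arrays, and the share of all probe sets that do so was not counted. The part of DCN in the other differences was not tested.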

How the data were processed

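Transcript levels were measured on 12 Affymetrix arrays, 4 each of AGA, Aza and vehicle, with groups and replicate numbers from the labels. The authors deposited linear intensity for each probe set, made with GCOS (Affymetrix's operating software) per the submitters' processing notes; the algorithm and any scaling are not given in the sources used here. Values under 1 were set to 1 and log2 was taken; array medians then differed by 0.623, over the limit of 0.5, so arrays were quantile normalized. The 62 control probe sets were left out. limma 3.58.1 in R 4.3.3 (lmFit, eBayes, two-sided) was fitted over all 12 arrays with group alone, with Benjamini-Hochberg adjustment over 22215 probe sets and a threshold of 0.05. The fit was tested on simulated levels with independent arrays and changes only above the median level. That test does not cover deviations shared by replicate number, or dim probe sets. A limma F test over replicate number terms used the fit with group and number.

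Symbols came from the platform annotation (19064 probe sets with 1 symbol, 1043 with several, 2108 with none). All 15 member probe sets matched RefSeq genes. Coordinates are given only for the promoter stretches of FKBP5 and SGK1, on build GRCh38.p14.

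Members and lists were chosen with earlier results of these data known. Every member probe set may be named, the brightest first. List genes are named if past the threshold, and otherwise, as values only, up to 3 per list and comparison with 4 same-number differences of 1 sign and the largest mean difference above the median level; those that passed in the block and trend fit are named beside them. The likeness measure was Pearson correlation after subtracting replicate means, above the median level.

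Deviations from group means of same-number arrays correlated over 0.1 in 6 of 12 pairs over all probe sets (0.0589 to 0.261) and in 12 of 12 above the median level (0.368 to 0.781), against 0.181 at most for different numbers there. The pairing comes from the data, as the labels give only the numbers. Alternatives were the block, block and trend, other scalings, floors, bright probe sets, 2 groups in the fit, and leaving out arrays.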

Additional observations from a re-analysis of the deposited data

Results flagged for a closer look

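In 3 of 45 groups of 4 arrays, 1 array stood apart from the other 3 by a gap that took a larger share of the group's range than Dixon's critical value, which chance gives in about 1 group in 20. HSD11B2 on vehicle replicate 2 read 0.57 with the other vehicle arrays at the floor. There any value above the floor would be flagged, so the chance rate does not apply to that group. FKBP5 on AGA replicate 4 read 9.35, above 8.68 to 8.75 on the other AGA arrays, and the replicate 4 arrays of Aza (9.66) and vehicle (9.30) were also high. KLF9 203541_s_at on vehicle replicate 2 read 3.18, below 3.80 to 3.87 on the other vehicle arrays.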

How the results depend on the processing

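No member probe set passed the adjusted threshold in any treatment comparison under any alternative (lowest adjusted p 0.0836, limma), and 57 of 933 single values turned sign. With the replicate block, 0 members passed in each comparison; all probe sets called numbered 2 in AGA minus vehicle, 0 in Aza minus vehicle (2 without the block) and 2 in Aza minus AGA. With replicate block and trend they numbered 158, 1 and 191. A floor of 16, log2(value + 16) and bright probe sets alone gave 0 in each comparison, and median-centred arrays 0 in Aza minus vehicle. Without all replicate 4 arrays they numbered 7, 6 and 8, and with 2 groups in the fit 5 in AGA and 4 in Aza. Leaving out single arrays gave 1 to 5, 0 to 7 and 2 to 7. For differences between replicate numbers (1 member and 2141 probe sets in all), the counts were 10 and 5286 with block and trend, 2 and 3606 with a floor of 16, 3 and 4263 with log2(value + 16), 7 and 5098 over bright probe sets, 0 and 0 without all replicate 4 arrays, and 0 to 1 and 251 to 1076 leaving out single arrays. The deposited scale gave 370 probe sets and median-centred arrays 2 members. Fewer probe sets or arrays enter some of these; for the rest, and for the turns of sign below, the cause was not tested.

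Signs turned, none of them in a called value. In AGA minus vehicle, HSD11B1 was 0.09 with a floor of 16, and TSC22D3 208763_s_at -0.05 on the deposited scale. NR3C2 was 0.13 with median-centred arrays and 0.51 without all replicate 4 arrays, and FKBP5 0.01 with median-centred arrays. Leaving out single arrays gave -0.57 to 0.50 for NR3C2, -0.32 to 0.14 for FKBP5, -0.20 to 0.06 for ZBTB16 and -0.57 to 0.01 for KLF9 203542_s_at. In Aza minus vehicle it gave -0.18 to 0.03 for NR3C1 201866_s_at, -0.27 to 0.71 for NR3C2, -0.15 to 0.31 for FKBP5, -0.02 to 0.23 for TSC22D3 207001_x_at, -0.03 to 0.09 for ZBTB16, -0.35 to 0.25 for KLF9 203542_s_at and -0.97 to 0.14 for KLF9 203541_s_at. There, TSC22D3 207001_x_at was -0.03 and ZBTB16 -0.04 without all replicate 4 arrays, ZBTB16 was -0.03 on the deposited scale, and KLF9 203541_s_at 0.13 with a floor of 16. In Aza minus AGA, leaving out single arrays gave -0.43 to 1.03 for HSD11B1, -0.43 to 0.62 for HSD11B2, -0.08 to 0.13 for NR3C1 201865_x_at, -0.14 to 0.03 for NR3C1 216321_s_at, -0.26 to 0.80 for NR3C2, -0.03 to 0.33 for FKBP5, -0.03 to 0.23 for ZBTB16 and -0.01 to 0.51 for KLF9 203542_s_at. There, HSD11B1 was -0.15 with a floor of 16, HSD11B2 -0.01 with log2(value + 16), and NR3C1 216321_s_at 0.12 on the deposited scale and 0.02 without all replicate 4 arrays.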
